A study of Mus musculus with 4 samples.

Results

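Transcripts of 9 genes of insulin-like growth factor (IGF) signalling were followed in mouse embryonic fibroblasts exposed to genistein: the ligand Igf1, the receptor substrates Irs1 and Irs2, and the binding proteins Igfbp2, Igfbp3, Igfbp4, Igfbp5, Igfbp6 and Igfbp7. The genes were taken by symbol from the deposited table, which holds 47937 genes in all. MEF cells, connective tissue cells cultured from mouse embryos, were either left untreated or given genistein at 50 µM for 24 h, with 2 total RNA libraries per group. Per the labels the untreated cells are wild-type, the genotype entry of the treated cells repeats the treatment, no vehicle is named, and the cells are listed as a line, so the libraries of a group need not come from separate embryos. The p-values then measure only the spread between these libraries, which may be technical. The libraries held 28591958 to 31464284 counts over genes and repeats, and library 1 and library 2 of each group differed by more than sampling noise.

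IGF1 and IGF2 are secreted growth factors that act through the type 1 IGF receptor, a tyrosine kinase closely related to the insulin receptor. The active receptor phosphorylates IRS proteins, which recruit PI3 kinase and so switch on AKT, and AKT keeps FOXO transcription factors out of the nucleus. IGF-binding proteins hold the ligands outside the cell, prolong their life and control their access to the receptor, and proteases release the ligands again. Fibroblasts are a well-known source of both ligands and binding proteins. Genistein has long been described as an inhibitor of tyrosine kinases.

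With genistein, Igf1 fell to 0.603 times its untreated level, while Irs2 and 5 of the binding proteins rose. The rises ran from 1.12-fold for Igfbp3 to 3.80-fold for Igfbp2. Irs1 fell slightly, to 0.897 times. Igfbp5 was almost silent in both groups. Of the 9 genes, 8 had enough counts to be tested, each in both groups, and 6 were higher and 2 lower at an adjusted p under 0.05 (edgeR). Among all 16240 genes tested, 33.5% were higher and 38.2% lower by the same rule, so being called was common here. The median log2 fold change of the 8 genes was 0.33, beside -0.03 over all genes tested. None of the 8 passed the thresholds of the study, which also ask for a log2 fold change beyond 1 in either direction and a mean normalised count over 100, and which 3.92% of all genes passed as higher and 4.16% as lower. In these bulk libraries, fewer cells that express a gene and less RNA of it per cell cannot be told apart.

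**Figure D1:**
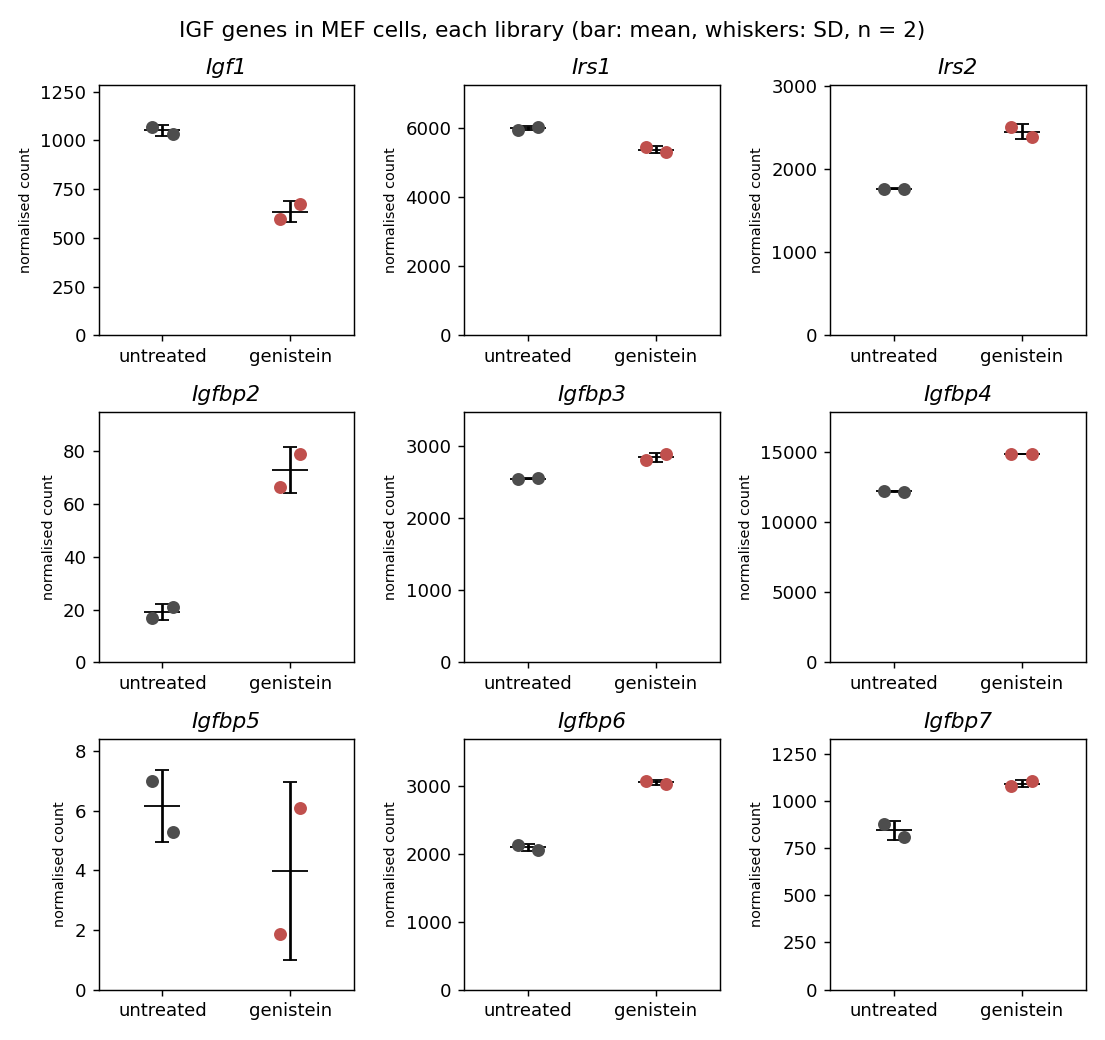
Normalised read counts of the 9 IGF genes in the 2 untreated (grey) and 2 genistein (red) libraries, with a vertical axis from 0 for each gene. Horizontal bars are means and whiskers SD (n = 2). The groups overlap for Igfbp5, whose counts stay under 8. With 2 libraries per group, separate points are weak evidence by themselves, and the share of all genes without overlap was not counted.

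Igf1, the ligand, had normalised counts of 1069.9 and 1031 in untreated cells and of 595 and 674 after genistein. Both genistein libraries lay well below both untreated ones. Its log2 fold change came to -0.73 (standard error, SE, 0.06, adjusted p = 3.4e-08, edgeR), and 12.7% of all genes tested had a lower value. Normalised counts are counts scaled to a common effective library size. Igf1 lies on chromosome 10, from 87858265 to 87937042 on the plus strand of GRCm38. An antisense gene in the same place, Igf1os, had at most 3 counts in any library and shares no exon with it.

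The 2 receptor substrates moved in opposite directions. Irs1, a docking protein of the IGF1 and insulin receptors, had normalised counts of 5954 and 6042 in untreated cells and of 5447 and 5312 after genistein. The groups did not overlap, yet the change was among the smaller ones called, with a log2 fold change of -0.16 (SE 0.03, adjusted p = 0.00026, edgeR). Irs2, the docking protein best known from insulin action in liver and beta cells and a target of FOXO factors, had 1768 and 1761 in untreated cells and 2514 and 2388 after genistein. Its rise was far larger than the spread between libraries (log2 fold change 0.47, SE 0.04, adjusted p = 2.4e-08, edgeR). Of all genes tested, 42.1% had a lower value than Irs1 and 76.3% a lower one than Irs2. Irs1 thus lay near the middle of all genes, and its log2 fold change was only -0.09 with library totals alone. Per length of exon, in reads per kilobase of exon scaled to library size (RPKM), the ratio of Irs2 to Irs1 was 0.429 and 0.421 in untreated cells and 0.667 and 0.650 after genistein. Irs1 was thus the more abundant of the pair in every library. The exons of Irs1 (chromosome 1, 82233101 to 82291416, minus strand) hold an opposite-strand gene, Gm9747, over 2822 bp, and this gene had 1 or 2 counts per library. Irs2 lies on chromosome 8 (10984681 to 11008458, minus strand), and the transcript that overlaps 162 bp of it, 9530052E02Rik, had 2 to 8 counts.

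Of the binding proteins, Igfbp4 was the most abundant, with an RPKM of 92.4 and 92.2 in untreated cells and of 113 and 112 after genistein. IGFBP4 mostly restrains IGF action and is cut by the protease PAPP-A. Its normalised counts were 12207 and 12178 in untreated cells and 14872 and 14849 after genistein. The libraries of a group were nearly equal while the groups lay far apart, and the log2 fold change was 0.29 (SE 0.05, adjusted p = 2.9e-05, edgeR).

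Igfbp6 had the largest rise among the abundant binding proteins. IGFBP6 binds IGF2 in preference to IGF1. Its normalised counts were 2135 and 2060.2 in untreated cells and rose to 3076 and 3032 with genistein. This was a log2 fold change of 0.54 (SE 0.04, 95% interval 0.46 to 0.62, adjusted p = 1.7e-09, edgeR). The interval lay above that of Igfbp4, which ran from 0.19 to 0.38.

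Igfbp7 and Igfbp3 rose less. IGFBP7 binds IGFs only weakly and is also known as a secreted regulator of growth and senescence. Igfbp7 had normalised counts of 878 and 809 in untreated cells and of 1078 and 1105 after genistein, a log2 fold change of 0.37 (SE 0.06, adjusted p = 2.3e-05, edgeR). Its untreated libraries differed from each other by more than its genistein libraries did, but the groups stayed apart. The last 85 bp of its exons (chromosome 5, 77349240 to 77408041, minus strand) overlap the opposite-strand gene Polr2b, which had 3566 to 5305 counts and was lower in both genistein libraries. Igfbp3, the main carrier of IGFs in blood and a known p53 target in human cells, had 2538 and 2556 in untreated cells and 2800.0 and 2889 after genistein. The groups did not overlap, but the log2 fold change was only 0.16 (SE 0.04, adjusted p = 0.0010, edgeR).

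Igfbp2 showed the largest fold change of the 9 genes, at a low level. IGFBP2 is a binding protein of embryonic tissue and of many tumours. Its raw counts were 17 and 20 in untreated cells and 71 and 78 after genistein. Exact Poisson 95% intervals, which cover counting error only, ran up to 30.9 for the higher untreated library and began at 55.45 for the lower genistein library. The log2 fold change was 1.92 with a 95% interval of 1.43 to 2.42 (adjusted p = 1.5e-06, edgeR), and 97.9% of all genes tested had a lower value. The width of this interval depends on the method, since the SE was 0.23 with edgeR and 0.42 with DESeq2. With a mean normalised count of 45.9, Igfbp2 failed the study's count threshold and no other one.

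Igfbp5, another binding protein that connective tissue cells often make, was close to the limit of detection. It had 7 and 5 raw counts in untreated cells and 2 and 6 after genistein, and the groups overlapped. The Poisson 95% intervals ran from 1.62 to 14.4 over the untreated libraries and from 0.242 to 13.1 over the genistein libraries, so no difference was detectable at this depth. Igfbp2 and Igfbp5 are neighbours on chromosome 1 and point towards each other with 5457 bp between them (72824503 to 72852474 and 72857932 to 72874884). The rise of Igfbp2 thus stood beside a neighbour that stayed near zero. Igfbp1 lies 3539 bp from Igfbp3 on chromosome 11 and had no counts in any library.

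**Figure D2:**
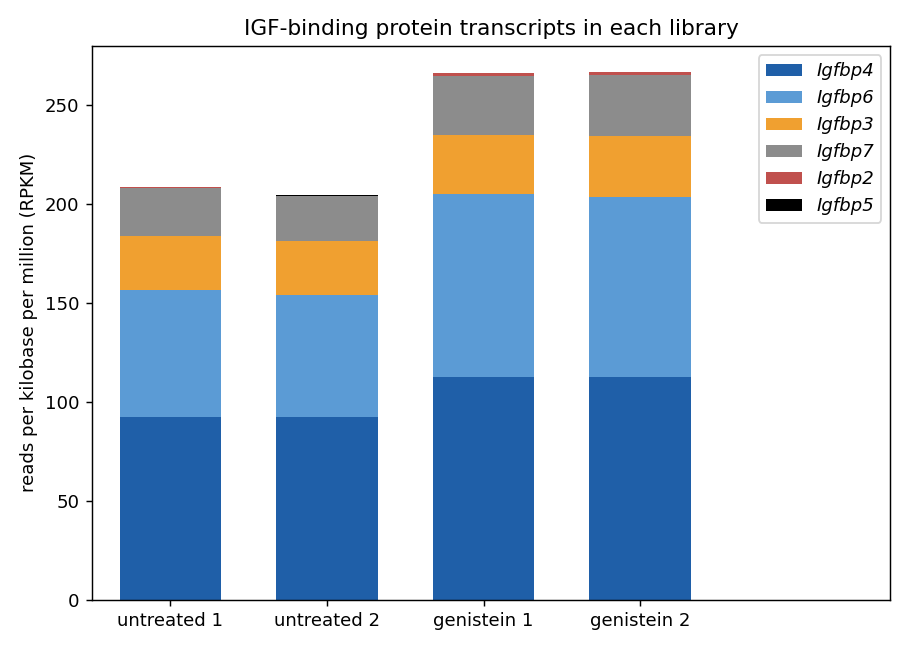
Levels of the 6 binding protein genes in RPKM, stacked for each of the 4 libraries, with the axis from 0. The stacks reach 208 and 204 in the untreated and 266.0 and 266.4 in the genistein libraries. Igfbp4 and Igfbp6 form most of each, while Igfbp2 and Igfbp5 are barely visible.

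Summed over the 6 genes, binding protein RNA came to 208 and 204 RPKM in untreated cells and to 266.0 and 266.4 RPKM after genistein. The mix changed little in its main parts, while the small mean share of Igfbp2 went from 0.168% in untreated to 0.495% in genistein libraries. The share of Igfbp4 was 44.8% ± 0.557 in untreated and 42.3% ± 0.0958 in genistein libraries (SD, n = 2), and that of Igfbp6 was 30.6% ± 0.336 and 34.5% ± 0.393. Igfbp3 had 13.2% ± 0.250 and 11.4% ± 0.239. For Igfbp4, Igfbp6 and Igfbp3 alike, the shares did not overlap between the groups. Igfbp7 had 11.3% in both groups. Set against these sums, Igf1 RNA was 1.73 and 1.70 per 100 of binding protein RNA in untreated cells and 0.756 and 0.854 after genistein. These shares and ratios are descriptions of RNA per length and were not tested. They depend on the annotated exon lengths, such as 9904 bp over 8 transcripts for Igf1 and 1112 bp over 1 for Igfbp6.

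Across the 9 genes the order of mean levels per length was the same in both groups. In untreated cells it ran, in RPKM, from Igfbp4 at 92.3 and Igfbp6 at 63.1 through Igfbp3 at 27.2, Igfbp7 at 23.3 and Irs1 at 21.9 to Irs2 at 9.33, Igf1 at 3.55, Igfbp2 at 0.345 and Igfbp5 at 0.0342. Igfbp7 and Irs1 differed there by little, since the lower Igfbp7 library had 22.4 and the higher Irs1 library 22.1. After genistein, Igfbp3 and Igfbp7 overlapped, at 29.9 and 30.9 against 29.8 and 30.6. The means of Igf1 and Igfbp2 were then 2.14 and 1.32.

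**Figure D3:**
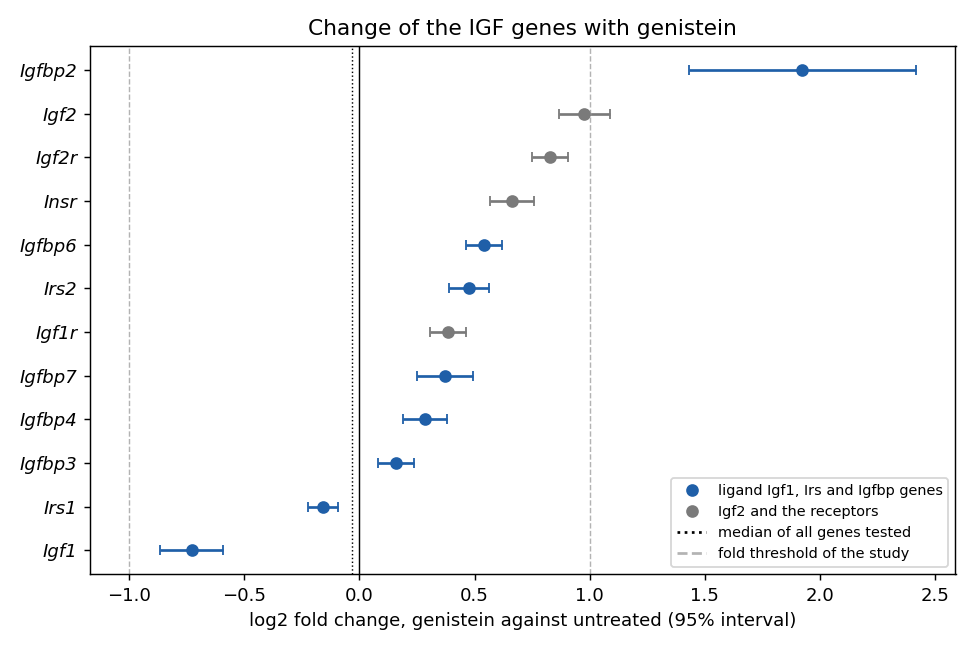
Log2 fold changes between the genistein and untreated groups, with 95% intervals from edgeR, for the 8 tested genes (blue) and for Igf2 and the receptors (grey). The dotted line is the median of all genes tested (-0.03) and the dashed lines mark the fold threshold of 1. Only Igf1 and Irs1 lie below 0, and of the 12 genes only Igfbp2 lies beyond 1.

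The receptors and the second ligand came from a list of 7 further ligands, receptors and carriers. All 4 that could be tested were higher, beside 33.5% of all genes tested. Their median log2 fold change was 0.75, beside -0.03 over all genes tested. Igf2, the fetal growth factor, had normalised counts of 6635 and 6932 in untreated cells and of 14061 and 12656 after genistein (log2 fold change 0.98, SE 0.05, adjusted p = 6.3e-11, edgeR). The genistein libraries differed here by more than the untreated ones, but both lay far above them. Igf2r, the receptor that takes up and degrades IGF2, rose with a log2 fold change of 0.83 (SE 0.04, adjusted p = 8.6e-12, edgeR), from 5349 and 5389 to 9459 and 9597. The signalling receptors rose too. Insr, the insulin receptor, had 1173 and 1137 in untreated and 1837 and 1824 in genistein libraries (log2 fold change 0.66, SE 0.05, adjusted p = 1.4e-09, edgeR). Igf1r had 2941 and 3075.5 in untreated and 4001 and 3858.5 in genistein libraries (log2 fold change 0.39, SE 0.04, adjusted p = 8.4e-08, edgeR). The ligands thus went opposite ways, and per length Igf2 stood far above Igf1, at a mean of 39.6 against 3.55 RPKM in untreated cells and of 78.0 against 2.14 after genistein. Igfbp1, Igfals and Igfbpl1, which are known mainly from liver or other tissues, had too few counts to test, with normalised counts of at most 2.13.

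**Figure D4:**
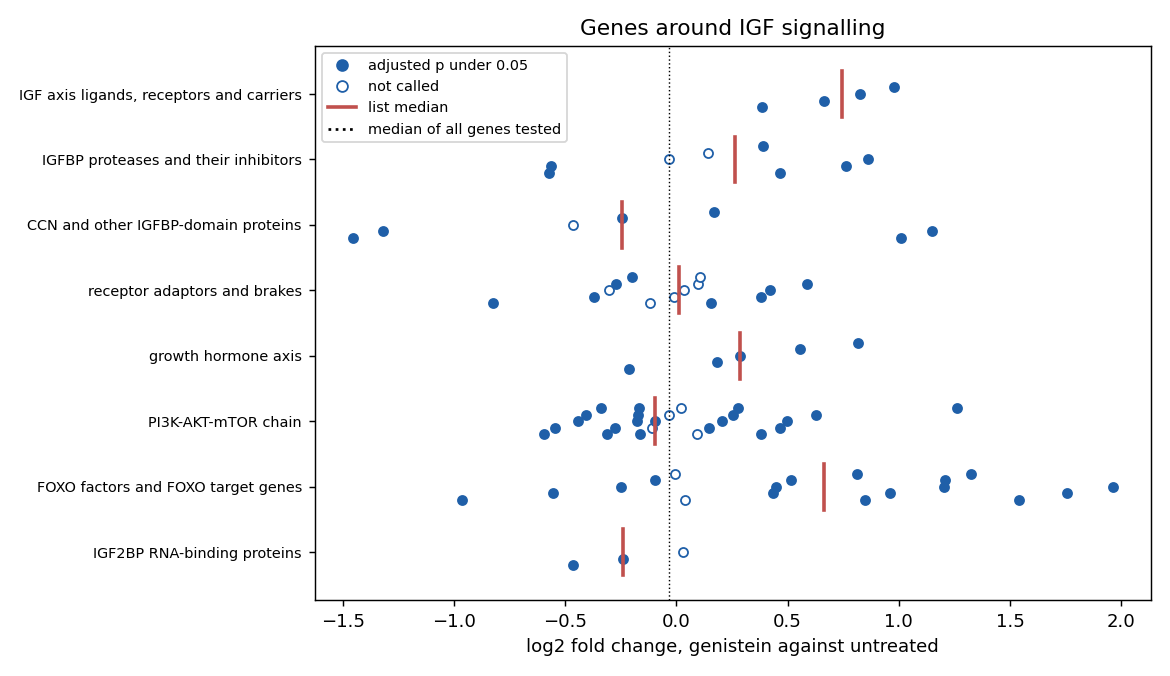
Log2 fold changes of the tested genes of 8 lists around IGF signalling. Filled points passed an adjusted p under 0.05 (edgeR), open points did not, red bars are list medians and the dotted line is the median of all genes tested (-0.03). The list of ligands and receptors (0.75) and the FOXO list (0.66) have the highest medians.

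The next list held proteases that cut binding proteins, and proteins that restrain such proteases. Of 8 tested genes, 4 were higher and 2 lower, beside 33.5% and 38.2% of all genes tested. The median was 0.26, and it was 0.15 without untreated library 1. Mmp2, a gelatinase that also cuts binding proteins, had a log2 fold change of 0.86 (SE 0.03, adjusted p = 1.8e-12, edgeR). The secreted serine proteases Htra3 and Htra1 had values of 0.47 and 0.39, the first of which was no longer called with DESeq2 (adjusted p = 0.084). Adam12, a protease of IGFBP3 and IGFBP5, fell with -0.57, and so did the metalloproteinase inhibitor Timp1 with -0.56 (adjusted p = 1.0e-09 and 5.8e-09, edgeR). Pappa, which encodes the protease of IGFBP4, was named after its values were seen. It was higher at 0.76 (SE 0.25, adjusted p = 0.013, edgeR) with only 21.0 and 29.6 normalised counts in untreated and 45.9 and 39.5 in genistein libraries. This call was lost with DESeq2 (adjusted p = 0.15), without untreated library 1 (0.52, adjusted p = 0.12, edgeR) and without genistein library 1 (0.65, adjusted p = 0.10, edgeR).

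Proteins that share the IGF-binding domain without being classical carriers were split. Of 7 tested genes, 3 were higher and 3 lower, beside 33.5% and 38.2% of all genes tested, with a median of -0.24. The matricellular CCN genes Ctgf and Wisp1, which respond to TGF-beta or YAP and to Wnt signals, fell strongly and passed all the study's thresholds (log2 fold changes -1.46 and -1.32, adjusted p = 1.2e-14 and 7.8e-15, edgeR). Their counterpart Cyr61 fell with -0.24. Crim1, a membrane protein that binds BMPs, rose with 0.17. The other called genes, the CCN members Nov and Wisp2, rose with 1.01 and 1.15 from few counts and were named after their values were seen (adjusted p = 0.00016 and 0.00024, edgeR). Nov had 37.0 and 42.3 normalised counts in untreated and 84.4 and 74.9 in genistein libraries. Wisp2 had 24.0 and 36.0 in untreated cells and 62.8 and 69.8 after genistein.

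Inside the cell, the adaptors and brakes of the receptors went both ways. Of 14 tested genes, 4 were higher, 4 lower and 6 not called, beside 33.5% higher and 38.2% lower of all genes tested. The median of 0.01 stood near that of all genes. It was -8e-04 without untreated library 1 and -0.02 without genistein library 2. The docking protein Gab1 (log2 fold change 0.59), the Ras activator Sos2 (0.42) and the adaptor Shc1 (0.38) rose. Dok1, which dampens tyrosine kinase signals, fell with -0.82, Grb10, an inhibitor of both receptors, with -0.37, and the phosphatase Ptpn11 with -0.27. The largest adjusted p among these 6 was 1.9e-05 (edgeR).

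In the chain from PI3 kinase to AKT and mTOR, 9 of 25 tested genes were higher and 12 lower, with a median of -0.10. Among all genes tested 33.5% were higher and 38.2% lower, so calls both ways were common. The number of lower genes was 7 with library totals alone. The median was -0.02 without genistein library 2 and -0.06 without genistein library 1. The regulatory subunits Pik3r3 and Pik3r1 rose, with log2 fold changes of 1.26 and 0.63, and Pik3r3 alone in the list passed all the study's thresholds. A further regulatory subunit, Pik3r2, named after its values were seen, fell with -0.17 (adjusted p = 0.0042, edgeR). Tsc2, which restrains mTOR, had 0.50. The kinase Akt1 fell with -0.55, the mTOR partner Mlst8 with -0.60 and the phosphatase Inppl1 with -0.44. Pik3r2 aside, the largest adjusted p of these 6 genes was 5.3e-07 (edgeR).

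Of 18 tested FOXO factors and known targets, 12 were higher and 4 lower, beside 33.5% and 38.2% of all genes, and the median was 0.66. All the study's thresholds were passed as higher by 6 of them, beside 3.92% of all genes. This list was chosen with earlier results of these data known. The 3.92% is a share of all 16240 genes tested, including genes whose mean normalised count was too low to pass. The 2 shares are thus not like for like. Several of the listed genes also answer to p53 or to other stress signals. Pik3ip1, an inhibitor of PI3 kinase, had normalised counts of 120 and 123 in untreated and of 464 and 482 in genistein libraries (log2 fold change 1.96, SE 0.10, adjusted p = 2.1e-11, edgeR). Ccng2, a cyclin of arrested cells, had 1.76 and the stress protein Sesn3 1.54. The factors Foxo4 and Foxo6 fell, with -0.56 and -0.96, and so did the antioxidant enzyme Sod2 with -0.25. The factors Foxo1 and Foxo3, well-known substrates of AKT, were among the 6 and had 1.33 and 1.21, and were named after their values were seen. Irs2, described above, was not counted in this list.

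By their profile over the 4 libraries, the protein-coding genes most like Igfbp2 were Kdr, Gab3 and Ang, out of 11779 compared. Likeness was the root mean square difference of log2 CPM (library-scaled counts) around each gene's mean, and was 0.0487, 0.0584 and 0.0734. Like Igfbp2, Kdr and Gab3 were weakly expressed, with mean normalised counts of 44.9 and 11.6. The genes most like Igf1 were Rpa2, Slc25a32 and Taf9b, at 0.00970, 0.0128 and 0.0135. With 4 libraries in 2 groups, such profiles reflect little more than the size of the change.

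The start regions of the 9 genes were compared because 6 of them rose together. RefSeq gives 10 windows for them (GRCm38.p6, from 250 bases before to 50 after a start), 2 of them for Igfbp2. Motifs were searched on both strands, and no motif contains another. The FOXO core TGTTTAC was in none of the 10 windows and in 3.65% of all 32817 windows. The E-box CACGTG was in 3, against 7.15% of all, and the GC box GGGCGG in 4, against 35.6%. TATAAA was in 2, against 13.6%. These shares were not matched for base composition. The windows of Irs1, Irs2 and Igfbp2 with an E-box had 71.3%, 72% and 67% G and C, beside a median of 52.7% over all windows. The E-box itself holds the letters CG, which occurred 28, 41 and 18 times in these windows, beside a median of 7. The E-box windows of Irs1 and Irs2 are shown because the same letters stand before genes that moved in opposite directions, that of Igfbp2 because of its large change, and the TATA window of Igfbp4 because it is the most abundant member. Capitals mark the motif and each line reads 5′ to 3′ on the strand of the gene.
Irs1 (chr1:82291537-82291566, minus strand): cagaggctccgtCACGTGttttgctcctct
Irs2 (chr8:11008956-11008985, minus strand): gtaacgcagagtCACGTGttgttttgctct
Igfbp2 (chr1:72824326-72824355, plus strand): cgtgtgcacaagCACGTGccctcacgcaag
Igfbp4 (chr11:99041204-99041233, plus strand): ccagggggccggTATAAAgtcccgggagcc
Positions are counted from the RefSeq starts, which lie 471 bases upstream of the GENCODE start given above for Irs2, 23 upstream for Irs1 and Igfbp2 and at the same base for Igfbp4. The window of Igf1 belongs to a RefSeq start inside its GENCODE span. The E-box begins 115 bases before this start of Irs1, 44 before that of Irs2 and 142 before that of Igfbp2, and the TATA motif 28 before that of Igfbp4. These matches are descriptions of letters, not of bound factors.

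Marker genes of the cells were also read. Of 13 fibroblast markers, Thy1 had no counts in any library, and Lum and Fap had at most 10, while the others were well expressed, with a summed level of 2049 and 2083 RPKM in untreated and of 1916 and 1877 in genistein libraries. Among them 2 were higher and 8 lower, beside 33.5% and 38.2% of all genes tested. The higher ones were Dcn (log2 fold change 1.08) and Fn1 (0.20), and the lower ones ran from -0.16 for Pdgfra to -0.73 for Pdgfrb. Of 7 epithelial markers, 3 keratin genes were lower and the sum was 21.5 and 20.8 RPKM in untreated and 4.53 and 4.11 in genistein libraries, with Epcam and Krt5 at 0 throughout. The 5 blood cell markers summed to 2.96 and 2.48 RPKM in untreated and to 7.55 and 7.72 in genistein libraries, where Csf1r and Cd68 were higher, with Ptprc at 0 or 1 count and Adgre1 and Hbb-bs at 0. The part of these changes in the results above was not tested. The 5 endothelial markers, with Kdr as the called one, summed to 0.426 RPKM or less, and the markers of muscle, fat, neurons and liver each to 0.121 RPKM or less.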

How the data were processed

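Total RNA of MEF cells was sequenced after depletion of ribosomal RNA. According to the study's methods, the authors trimmed reads with Trim Galore!, aligned them to mm10 with STAR and counted them over Gencode M9 genes and repeats with TEtranscripts. The deposited values are raw counts. The kit marks strand, but the counter's strand setting is not given in the sources used here, so overlapping genes are uncertain. One unnamed entry (0.00208% to 0.00314% of counts) was left out.

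From these counts, 16240 genes and 1118 repeats were kept by filterByExpr, scaled by TMM and tested with the quasi-likelihood method of edgeR 4.0.16 (R 4.3.3), two-sided, p-values being adjusted by Benjamini-Hochberg over all kept entries. Exact permutation of 2 against 2 libraries cannot give a p below 0.333. Symbols, places and exon lengths came from GENCODE M21 (GRCm38, the assembly of mm10), or RefSeq synonyms for CCN genes. RPKM used the union of exons and TMM-scaled library sizes. The union counts every annotated exon, used or not, and comes from a later annotation than the counts. Levels of different genes are therefore only approximate beside each other. Standard errors are the log2 fold change divided by the root of F. The fit was tested on simulated counts.

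Members and lists were chosen with earlier results of these data known. The text names all members, ligands, receptors, carriers and IGF2BP genes, and per other list up to 3 higher and 3 lower genes of largest change with an adjusted p under 0.05 and a mean normalised count over 100. It also names the 3 genes closest in profile to the members of highest and lowest change. Motifs and promoter windows were added after the results were seen. Same-numbered libraries had deviations that correlated at -0.0265, so they were not treated as pairs. Alternatives were the omission of each library, a replicate block, other scalings, no filter and DESeq2 1.42.0.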

Additional observations from a re-analysis of the deposited data

How the results depend on the processing

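The 8 tested IGF genes kept their direction and an adjusted p under 0.05 in each of the 10 alternatives (RLE, library totals, factors from genes alone, no filter, DESeq2, replicate block and 4 fits without 1 library). In the last, the lone library of a group was assumed to vary like the other group. Igf1 ranged from -0.82 to -0.64 and Igfbp2 from 1.77 to 2.08 on the log2 scale, and the largest adjusted p were 0.036 for Irs1 and 0.018 for Igfbp3. With a mean count over 10 instead of 100, 1 gene (Igfbp2) passed the study's thresholds. Without a filter, Igfbp5 had -0.67 (SE 0.71, adjusted p = 0.50, edgeR). With the replicate block 6 were higher and 2 lower, and no call among the members changed.

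With library totals alone, the chain to mTOR had 7 lower genes, and 1 IGF2BP gene was higher. With DESeq2, 2 of the proteases were higher, and Htra3, Pappa and Stat5a were no longer called; the cause was not tested. The median of the proteases ranged from 0.15 to 0.39 without 1 library and was 0.03 without a filter, and that of the chain to mTOR ranged from -0.11 to -0.02 without 1 library. The median of the adaptors reversed to -0.0353 without a filter, and without 1 library it ranged from -0.0154 (without genistein 2) to 0.027 (without genistein 1), with -8e-04 without untreated 1. In raw counts, without length, the share of Igfbp4 was 68.9% in untreated and 67.8% in genistein libraries. With 2 libraries per group, changes of genes as weak as Igfbp5 are out of reach.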

Other observations

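Growth hormone drives Igf1 in liver and other tissues through its receptor, JAK2 and STAT5. Of the 5 genes of this axis on a list, 4 were higher and 1 lower after genistein, beside 33.5% and 38.2% of all genes tested, with a median log2 fold change of 0.28. Ghr, the receptor, had normalised counts of 769 and 816 in untreated and of 1156 and 1172 in genistein libraries (log2 fold change 0.55, SE 0.06, adjusted p = 1.5e-07, edgeR). Cish, a target and brake of STAT5, had 79.9 and 85.8 in untreated and 146.3 and 145.8 in genistein libraries (log2 fold change 0.82, SE 0.14, adjusted p = 4.8e-05, edgeR). Stat5a had 0.28 and Stat5b -0.21 (adjusted p = 0.0023 and 0.0024, edgeR), so the 2 STAT5 genes, both activators of Igf1, went opposite ways, although Stat5a was no longer called with DESeq2 (adjusted p = 0.051).

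The IGF2BP proteins bind Igf2 and other transcripts and are typical of embryonic cells. Igf2bp1 had normalised counts of 4153 and 4138 in untreated and of 2988 and 3021 in genistein libraries (log2 fold change -0.46, SE 0.03, adjusted p = 2.8e-09, edgeR). Igf2bp2 was lower too, with -0.24 (adjusted p = 5.5e-05, edgeR). Igf2bp3 had 0.03 (SE 0.04, adjusted p = 0.44, edgeR) and was called higher with library totals alone, at 0.10 (adjusted p = 0.030, edgeR).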
